A study of Saccharomyces cerevisiae with 12 samples.

Results

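The genes described here are the 34 yeast genes named MRPL, which encode proteins of the large subunit of the mitochondrial ribosome. They were taken by a list of systematic names and make up 34 of the 7127 gene identifiers in the expression tables, and all 34 were among the 6082 genes with enough signal to be tested (a mean of at least 10 counts). Of the members, 21 have a counterpart in bacterial ribosomes and 13 are found only in mitochondrial ribosomes, as the family names in the annotation show. The list itself uses no expression value, although it was drawn up with earlier results of these data known.

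The RNA came from the diploid Saccharomyces cerevisiae strain BY4743, a laboratory strain of the S288C background, grown in 6 environments with 2 replicate libraries in each. SC (synthetic complete medium) was used at 30°C, at 37°C, and at 30°C with 40 g/l of NaCl. YPD (rich medium with glucose) was used at 24°C and 32°C, and YPG, in which 3% glycerol takes the place of glucose, at 30°C. The titles name YPG, while the medium field of the same samples reads YPD, and the title was followed. All groups shared the strain, the growth in small volumes in titration plates and the harvest in an advanced phase of growth, and the replicates were started and propagated independently of each other. Medium, temperature and growth phase at harvest cannot be told apart where they differ together, as between SC and YPD.

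The mitochondrial ribosome translates the few messages that are encoded by mitochondrial DNA, most of which specify membrane subunits of the respiratory chain and the ATP synthase. The proteins of its large subunit are encoded in the nucleus, made in the cytosol and imported. In budding yeast the messages of these proteins are known targets of Puf3, an RNA-binding protein that recognizes a short element in the 3′ part of the message and regulates their stability, translation and localization.

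The members lie on 12 chromosomes, with between 1 and 5 on each, and 20 of them have an upstream neighbour on the opposite strand. Their coding sequences are 213 to 1173 bases long, and MRPL44 (YMR225C) is the only one with 2 exons. Coordinates and sequences are from the RefSeq annotation of the R64 assembly, which is also the build that the labels name. MRPL51 (YPR100W) overlaps YPR099C over 323 bases, and MRPL19 (YNL185C) overlaps YNL184C over 113 bases. The sources used here do not state whether counting used the strand, so reads in these overlaps cannot be assigned with certainty.

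A feature shared by all members, which the choice of the genes did not use, is found just behind their coding sequences. The element TGTANATA, searched on the sense strand in the 200 bases after the stop codon, was present in 34 of 34 members, against 844 of the 5989 nuclear protein-coding genes (14.09%). The members held 42 such elements, 8 members having more than 1, and the element nearest to the stop codon began 13 to 136 bases after it, with a median of 47.5. The variable base was most often A or T: TGTAAATA occurred 16 times, TGTATATA 15 times, TGTACATA 10 times and TGTAGATA 1 time. A longer form of the same element, with C at the second base before its first T, was present in 28 members (82.35%) and in 4.224% of all genes. A match is a description of the letters, and neither the extent of the transcripts nor binding was measured. The sites below are read 5′ to 3′ on the strand of the gene, with the element in capitals. Among members that passed the test used below, MRPL37, MRPL32 and MRPL44 had the largest falls in salt. MRPL28, MRPL51 and MRPL23 had the largest rises in salt that passed. These rises were smaller in size than many falls not shown, and the direction of MRPL51 is uncertain. MRPL31, MRPL50 and MRPL49 had the largest falls in glycerol. MRPL4 departs from the others in glycerol, and MRPL39 is the least abundant member.
MRPL37, chrII:741638-741667, plus strand: tttggtatcctTGTAAATAaatatgtgtgt
MRPL32, chrIII:119206-119235, plus strand: aaacttaagccTGTATATAgaaacttaatt
MRPL44, chrXIII:720854-720883, minus strand: acaagcaagccTGTAAATAatatatatgca
MRPL28, chrIV:1386537-1386566, plus strand: ctgtctcctgcTGTAAATAactgatgatca
MRPL28, chrIV:1386593-1386622, plus strand: atataattataTGTACATAgacatataaag
MRPL51, chrXVI:730250-730279, plus strand: ataattatactTGTATATAtaatttggggc
MRPL23, chrXV:612535-612564, plus strand: tcttcaatccaTGTATATAtttatctgtta
MRPL31, chrXI:185225-185254, minus strand: aaaatttcatcTGTATATAgtttaatcatt
MRPL50, chrXIV:669719-669748, minus strand: gcgtacaatctTGTATATAggcaacatcgc
MRPL49, chrX:246977-247006, plus strand: ttttagggataTGTACATAtacgcatacgt
MRPL49, chrX:247005-247034, plus strand: gtataaaatcaTGTAAATAacaataaaatt
MRPL4, chrXII:1015467-1015496, plus strand: accctctctccTGTAAATAtatatatatat
MRPL39, chrXIII:251207-251236, minus strand: ttcatttatccTGTAAATAagtaatggata

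Genes of neighbouring function shared this feature to different degrees. It was found in 11 of 11 large-subunit genes that do not bear the name MRPL, in 32 of 33 genes of the small mitochondrial subunit, in 14 of 14 mitochondrial aminoacyl-tRNA synthetase genes and in 11 of 14 genes of translation and assembly factors (78.57%). It was found in 3 of 32 nuclear genes of the respiratory chain and ATP synthase (9.375%) and in 3 of 76 genes of the large cytosolic subunit (3.947%). CCAAT, the core of the site bound by the Hap2/3/4/5 activator of respiratory genes, was searched on both strands within 300 bases before the start codon. CCAAT was present upstream of 10 of 34 members (29.41%), of 29 of 32 respiratory genes (90.62%) and of 41.8% of all genes. It was present upstream of 54.55% of the other large-subunit genes, 45.45% of the small subunit, 57.14% of the translation and assembly factors and 35.71% of the synthetases. AATTTT, which occurs in the promoters of many yeast ribosome biogenesis genes, was present upstream of 14 members (41.18%) and of 54.09% of all genes.

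The libraries were similar in size. The deposited counts had been scaled to nearly the same total in each library, between 13873000 and 14144500, and the steps between low values correspond to 12373500 to 15507600 read pairs. The members together took 0.134% to 0.252% of the counts of a library. Their share was 0.232% ± 0.0110 in SC at 30°C, 0.242% ± 0.0137 in SC at 37°C and 0.180% ± 0.0124 with NaCl (here and below mean ± SD, n = 2). It was 0.168% ± 0.000792 in YPD at 32°C, 0.144% ± 0.0147 in YPG and 0.136% ± 0.000569 in YPD at 24°C. The SC libraries at 30°C and 37°C therefore stood highest and those of YPG and of YPD at 24°C lowest. These values are shares of the RNA of a culture, in which fewer messages per cell and fewer cells of a kind cannot be told apart.

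Levels between genes were compared per length, in FPKM (fragments per kilobase of transcript and of sequenced library). The median member was listed at 98.6 ± 6.78 FPKM in SC at 30°C, where the median tested gene was at 52.2 ± 2.21. In YPD at 24°C the median member was at 59.2 ± 2.02 FPKM and the median tested gene at 40.4 ± 0.492. The members were thus moderately expressed and above the middle of all genes in both media. Averaged over the 12 libraries, the most abundant members were MRPL23 (137 FPKM), MRPL9 (135 FPKM) and MRPL20 (115 FPKM). MRPL23 (YOR150W) encodes uL13m, MRPL9 (YGR220C) encodes uL3m, which reaches towards the peptidyl transferase centre in bacterial ribosomes, and MRPL20 (YKR085C) encodes the mitochondrion-specific mL58. The lowest were MRPL39 (11.7 FPKM), MRPL25 (32.4 FPKM) and MRPL33 (37.1 FPKM). MRPL39 (YML009C) encodes bL33m and has the shortest coding sequence of the members, for which a length correction is least certain. MRPL25 (YGR076C) encodes mL59 and is also known as AFO1, after the long replicative life span of yeast that lack it, and MRPL33 (YMR286W) encodes uL30m.

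**Figure D1:**
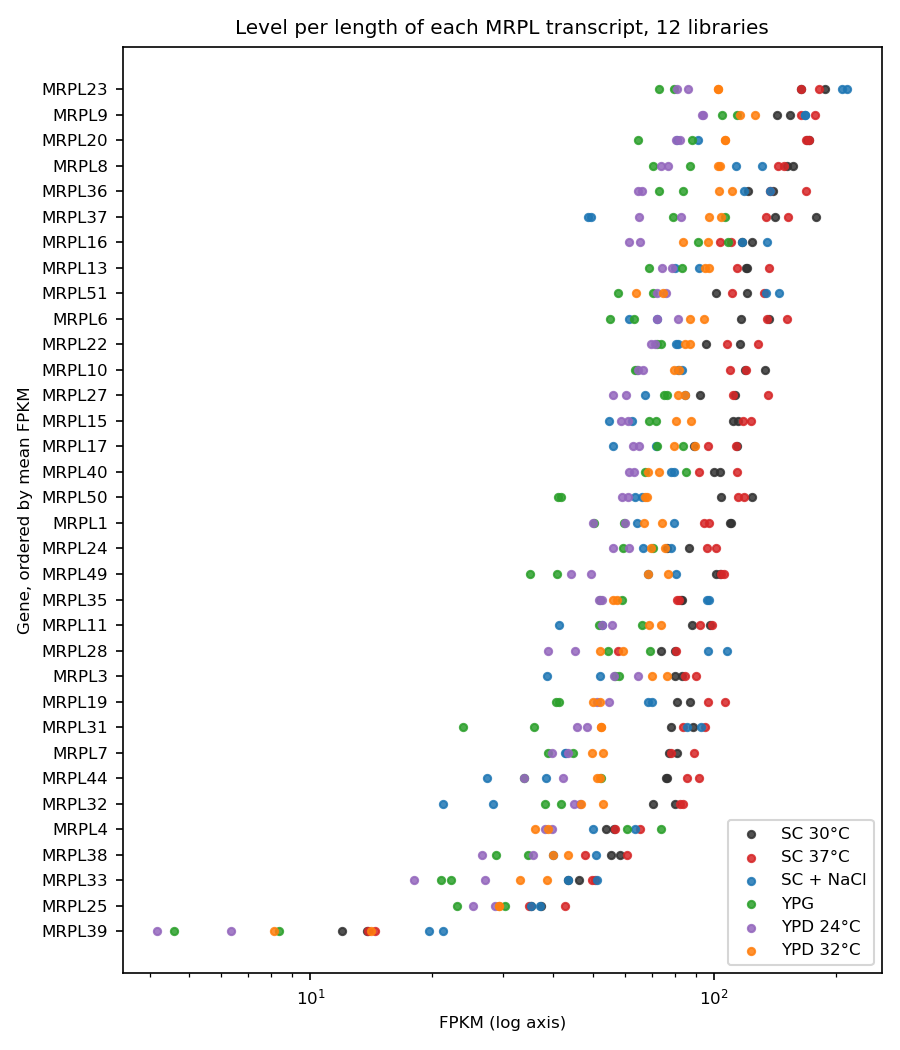
FPKM of each member (rows, ordered by mean) in the 12 libraries, with 1 point per library coloured by environment, on a log axis. MRPL39 lies apart at a mean of 11.7 FPKM, the next member, MRPL25, is at 32.4 FPKM, and MRPL23 is highest at 137 FPKM.

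Differences between environments were tested on the log2(count + 1) scale with limma, with p-values adjusted over all 6082 genes. All 34 members differed between the 6 environments in the moderated F test, the largest adjusted p among them being 0.0222 for MRPL25. This has to be read against the background, in which 96% of all tested genes passed. The mean was highest in SC at 37°C for 20 members, with NaCl for 7, in SC at 30°C for 6 and in YPG for MRPL4 alone. It was lowest in YPD at 24°C for 14 members, in YPG for 12, with NaCl for 7 and in YPD at 32°C for 1. The widest ranges of environment means were those of MRPL39 (1.92 on the log2 scale), MRPL32 (1.75) and MRPL37 (1.69). The narrowest were those of MRPL25 (0.54), MRPL40 (0.71) and MRPL17 (0.72).

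**Figure D2:**
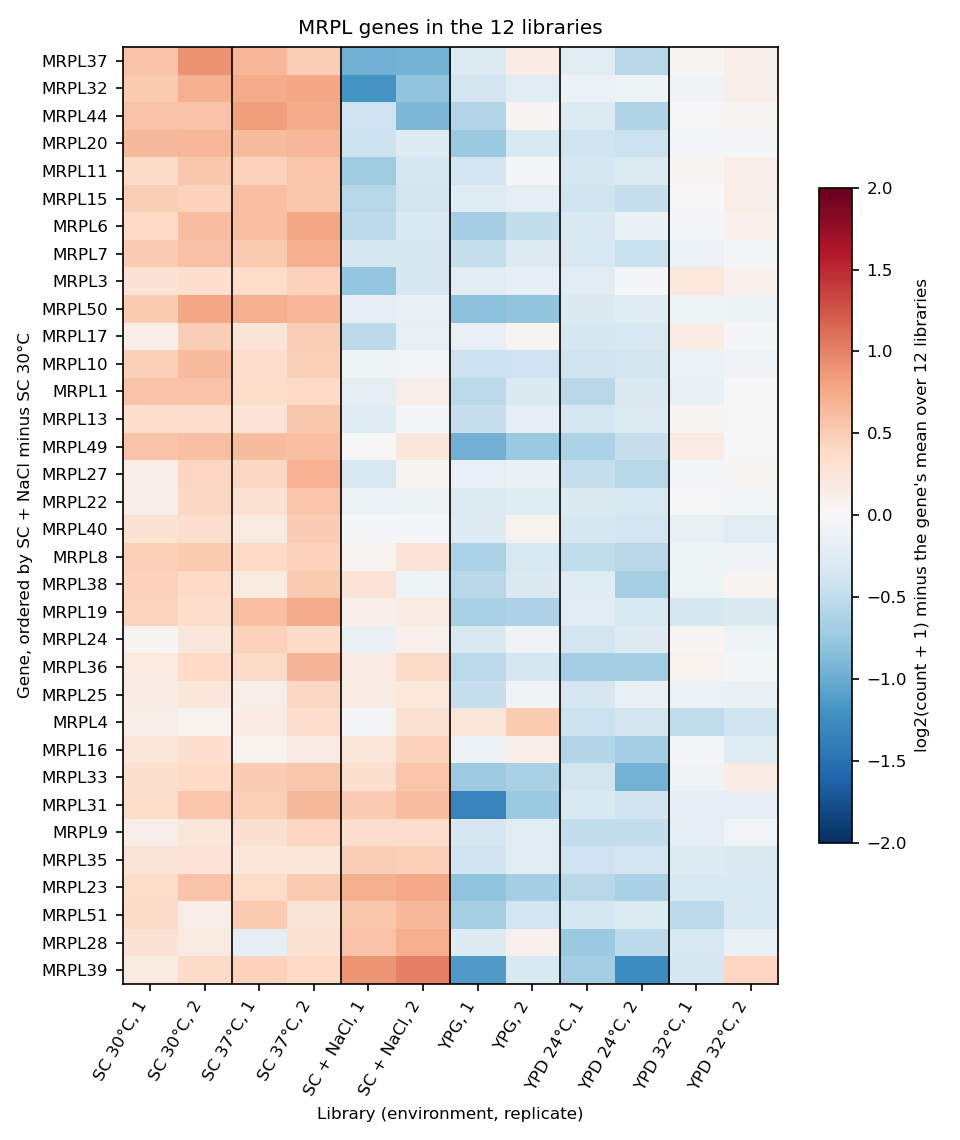
Each row is a member and each column a library; the colour is log2(count + 1) minus the mean of that gene over the 12 libraries. The SC columns at 30°C and 37°C are above the mean in nearly every row, the YPG and YPD at 24°C columns mostly below it, and the NaCl columns run from below the mean (MRPL37, MRPL32, top) to above it (MRPL23, MRPL39, bottom).

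The members moved largely together across libraries. Among the 561 pairs of members the median correlation of log2 levels over the 12 libraries was 0.747, against 0.0902 over all pairs of tested genes; the points share their libraries, and the values are a description. MRPL10 (YNL284C), which encodes uL15m, followed the median profile of the other members most closely (r = 0.964). MRPL4 (r = 0.34), MRPL28 (r = 0.50) and MRPL3 (r = 0.62) followed it least. MRPL4 (YLR439W) encodes uL29m at the exit of the polypeptide tunnel, MRPL28 (YDR462W) encodes mL40 of the central protuberance, and MRPL3 (YMR024W) encodes mL44, a protein with a ribonuclease III-like fold.

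Heat did not move the members past the threshold. In SC at 37°C against SC at 30°C, 0 members were called higher and 0 lower by limma, where 11.9% of all tested genes were higher and 11.6% lower. The member median was 0.09 and that of all genes 0.02. The differences of the members lay between -0.19 for MRPL1 and 0.28 for MRPL24. At an unadjusted p under 0.05 there were 3 members, all higher, namely MRPL9, MRPL19 and MRPL24. Under quantile normalization 2 members were called (MRPL9 and MRPL24), where 1114 of all tested genes were higher and 1005 lower. On the FPKM table as well as without a trend in the variance 1 was called (MRPL19). On FPKM 682 of all tested genes were higher and 678 lower. In data simulated on this comparison the test found 55% of changes of 0.5 and 93% of changes of 1 on the log2 scale, so small shifts of single genes were not detectable in all cases. The simulation changed 100 genes of each size, not picked from the members, whereas 1425 genes were called in the data. Its shares need not hold for the members in the real fit.

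With NaCl against SC at 30°C, 20 members fell and 4 rose, whereas 47.2% of all tested genes fell and 33.8% rose. The member median was -0.37 and that of all genes -0.22, and the members ran from -1.69 to 0.66. All tested genes varied more widely, with quartiles of -1.15 and 0.66 and 5th and 95th percentiles of -2.81 and 2.77. Of the 20 lower calls 15 were kept under all 22 alternative settings, and of the 4 higher calls 0 were. Both other scalings called more members higher than the main fit. Under median-of-ratios scaling 15 members were lower and 7 higher, with 2586 of all tested genes lower and 2460 higher. Under quantile normalization 16 members were lower and 8 higher, with 2644 of all tested genes lower and 2449 higher.

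The largest fall in salt was that of MRPL37 (YBR268W), which encodes the mitochondrion-specific mL54. Its counts were 657 and 832 in SC at 30°C and 227 and 230 with NaCl, which gave 744 ± 124 and 229 ± 2.19 and a log2 difference of -1.69 (SE 0.17, adjusted p = 2.5e-07). The replicates of the salt cultures were nearly equal and far below both control libraries. MRPL32 (YCR003W) encodes bL32m, whose processing by the m-AAA protease is known to be needed for assembly of the ribosome. Its counts were 569 and 647 in SC at 30°C and 172 and 228 with NaCl (log2 difference -1.61, SE 0.15, adjusted p = 1.05e-07), again without overlap. MRPL44, which encodes mL53 and is the only member with an intron, fell from 329 and 331 to 167 and 119 counts (log2 difference -1.22, SE 0.21, adjusted p = 9.35e-05).

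The members that rose in salt did so by little. MRPL28 had 518 and 479 counts in SC at 30°C and 626 and 699 with NaCl (log2 difference 0.41, SE 0.17, adjusted p = 0.0396). MRPL23 had 1182 and 1350 counts in SC at 30°C and 1490 and 1539 with NaCl (log2 difference 0.26, SE 0.10, adjusted p = 0.0308). In both genes the groups did not overlap, but without SC at 30°C replicate 1, and likewise without NaCl replicate 2, neither call was kept. MRPL35 (YDR322W), which encodes mL38, stood at 1341 ± 7.18 and 1557 ± 15.2 counts (log2 difference 0.22, adjusted p = 0.0409).

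MRPL51, which encodes mL43, had 746 and 626 counts in SC at 30°C and 829 and 893 with NaCl (log2 difference 0.33, SE 0.14, adjusted p = 0.044). The overlapping YPR099C was listed at 1048 and 1031 counts in SC at 30°C and at 64.7 and 95.4 with NaCl. The sum of the overlapping pair therefore went from 1726 ± 96.5 to 941 ± 67.3 counts, opposite to the listed value of MRPL51. How the reads of the overlap were divided was not tested, so the direction of MRPL51 in salt is uncertain. MRPL39 had the highest log2 difference of all members, with 37.2 and 43.0 counts in SC at 30°C and 61.1 and 66.4 with NaCl, but with its low counts it did not pass (log2 difference 0.66, SE 0.37, adjusted p = 0.118).

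By place in the ribosome the salt values were read in small groups, which need not hold every member at a place. MRPL37, MRPL32 and MRPL44, with the largest falls, were in none of these groups. The 3 members grouped as stalk proteins all fell: MRPL11 (YDL202W, uL10m, log2 difference -0.99), MRPL1 (YDR116C, uL1m, -0.61) and MRPL19 (uL11m, -0.27), of which the last call was lost in 12 alternatives. Of the 3 members grouped at the exit tunnel, MRPL22 (YNL177C, uL22m, -0.38) and MRPL40 (YPL173W, uL24m, -0.36) fell, both lost under another scaling, and MRPL4 was at 0.03 (adjusted p = 0.836). In the central protuberance 2 of the 5 grouped members fell, MRPL7 (YDR237W, uL5m, -0.88) and MRPL17 (YNL252C, mL46, -0.67), while MRPL28 and MRPL35 rose and MRPL36 (YBR122C, bL31m) was at -0.03. The 2 members grouped near the peptidyl transferase centre did not pass, MRPL9 being at 0.18 (adjusted p = 0.0769) and MRPL16 (YBL038W, uL16m) at 0.06 (adjusted p = 0.645). Members of both evolutionary classes were found on either side. Of the 21 with a bacterial counterpart 12 were lower and 1 higher. Of the 13 mitochondrion-specific ones 8 were lower and 3 higher, MRPL51 among the 3. Of all tested genes 47.2% were lower and 33.8% higher.

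**Figure D3:**
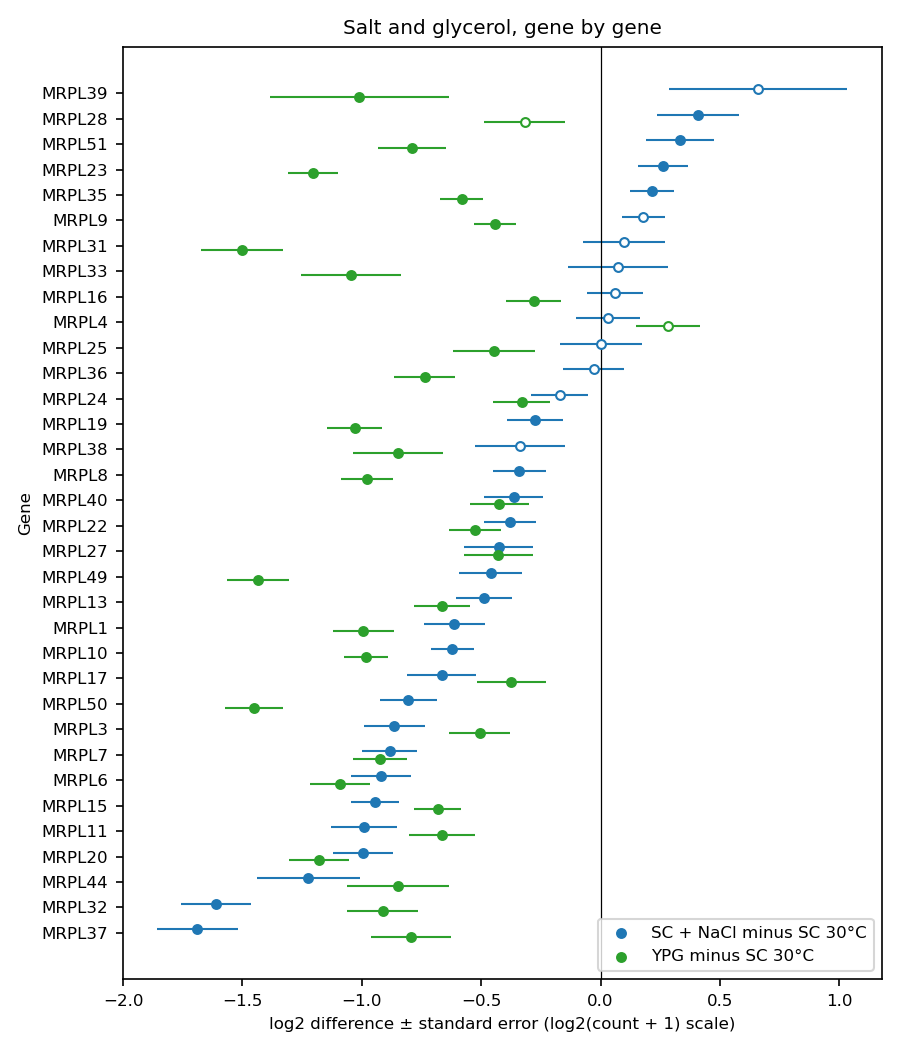
log2 differences from SC at 30°C with their standard errors for each member, with NaCl (blue) and in YPG (green); filled points passed the threshold. In salt the members run from -1.69 (MRPL37) to 0.66 (MRPL39), and in YPG all but MRPL4 are below 0.

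Nearly all members were lower in YPG than in SC at 30°C, which differ in the base medium as well as in the carbon source. In YPG against SC at 30°C, 32 of 34 members fell and 0 rose, where 38.7% of all tested genes fell and 28.1% rose. The member median was -0.79 (0.578 of the level in SC), against -0.11 for all genes. In 33 members both YPG libraries were below both SC libraries, as in 47.6% of all genes. Of the 32 calls 24 were kept under all alternatives. For the same groups by place, which need not be complete, the medians of the stalk, central protuberance and exit tunnel members were -0.99, -0.58 and -0.42. The 2 members grouped near the peptidyl transferase centre were at -0.44 (MRPL9) and -0.28 (MRPL16).

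MRPL31 (YKL138C), which encodes mL60, fell furthest, from 452 and 513 counts in SC to 138 and 207 in YPG (log2 difference -1.50, SE 0.17, adjusted p = 2.2e-06). MRPL50 (YNR022C), which encodes bL9m, had 639 and 761 counts in SC and 252 and 256 in YPG (log2 difference -1.45, SE 0.12, adjusted p = 8.34e-08). MRPL49 (YJL096W), which encodes bL21m, had 719 and 734 counts in SC and 248 and 290 in YPG (log2 difference -1.43, SE 0.13, adjusted p = 2.09e-07). In these 3 genes the YPG libraries lay far below those of SC, and the calls were kept under all alternatives. With NaCl, MRPL50 (-0.80, adjusted p = 2.15e-05) and MRPL49 (-0.46, adjusted p = 0.00465) fell as well, and MRPL31 was at 0.10 (adjusted p = 0.601).

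MRPL4 was the exception. Its counts were 791 and 759 in SC at 30°C and 855 and 1035 in YPG, a log2 difference of 0.28 (SE 0.13, adjusted p = 0.0784). Both YPG libraries were above both SC libraries, but the difference did not pass in the main fit. It passed under median-of-ratios scaling (0.41) and quantile normalization (0.49), without YPG replicate 1 (0.42), with the replicate number as a block and with only these 2 environments in the fit. The other member not called was MRPL28 (log2 difference -0.32, SE 0.17, adjusted p = 0.114).

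The YPG replicates differed from each other in level. All 34 members were higher in replicate 2 than in replicate 1, by a median of 0.24 on the log2 scale, when the median of all tested genes was 0.04 higher. The member median against SC at 30°C was -0.62 without YPG replicate 1 and -0.95 without YPG replicate 2, and 25 members were called without replicate 1. This median was below 0 with either library.

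Against YPD at 32°C, which has glucose in the same base medium and is warmer, 16 members were lower in YPG and 1 was higher, with 36.5% of all genes lower and 26.9% higher. The member median was -0.31 and that of all genes -0.10. The higher one was MRPL4, with 507 and 545 counts in YPD at 32°C and 855 and 1035 in YPG (log2 difference 0.84, SE 0.13, adjusted p = 7.25e-05). Its 2 YPG libraries were far above those of YPD, and the call was kept under all alternatives. The largest falls among called members were those of MRPL49 (log2 difference -0.94, SE 0.13, adjusted p = 1.89e-05), MRPL31 (-0.84, SE 0.17, adjusted p = 0.000612) and MRPL33 (-0.72, SE 0.21, adjusted p = 0.00777), while MRPL39 was at -0.76 and did not pass (adjusted p = 0.091). The number of members called was 8 without YPG replicate 1 and 11 without YPD 32°C replicate 2.

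All 34 members fell when YPD at 24°C was compared with SC at 30°C, where 45.6% of all tested genes fell and 10.4% rose. The member median was -0.85 and that of all genes -0.29. In 34 members both libraries were below both of SC, as in 63.6% of all genes. The largest falls were those of MRPL39, from 37.2 and 43.0 to 19.8 and 13.0 counts (log2 difference -1.26, SE 0.37, adjusted p = 0.0102), of MRPL49, from 719 and 734 to 313 and 352 (-1.13, SE 0.13, adjusted p = 5.29e-06), and of MRPL37, from 657 and 832 to 385 and 303 (-1.11, SE 0.17, adjusted p = 6.5e-05). MRPL25 fell least (-0.42, adjusted p = 0.0489). Under median-of-ratios scaling, which sets the median of all genes near 0, 29 of the 34 were still lower and the member median was -0.56. Of all tested genes 1723 were then lower and 1644 higher. Under quantile normalization 22 members were lower and MRPL25 was at 0.16, with 1439 genes lower and 1952 higher.

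When YPD at 32°C was compared with SC at 30°C, 24 members fell and 0 rose, where 21.5% of all tested genes fell and 16.7% rose. The median over the members was -0.49 and that of all genes -0.01. MRPL23 went from 1182 and 1350 to 735 and 737 counts (log2 difference -0.78, SE 0.10, adjusted p = 3.09e-05). MRPL50 went from 639 and 761 to 419 and 414 counts (-0.74, SE 0.12, adjusted p = 0.000201). MRPL19 went from 606 and 563 to 350 and 363 counts (-0.71, SE 0.12, adjusted p = 0.000214), with the reservation made for its overlap, where YNL184C was listed at 2.91 to 18.1 counts in the 12 libraries. These 3 members were called under all alternatives, whereas the number of members called was 14 without SC at 30°C replicate 2.

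Within YPD, 20 members were lower at 24°C than at 32°C and 0 higher, where 42.6% of all tested genes were lower and 6.71% higher. The member median of -0.34 was close to the -0.26 of all genes, and the result depended on the scaling. Under median-of-ratios scaling 3 members were lower and 2 higher, with 1242 of all tested genes lower and 1280 higher. Under quantile normalization 1 member was lower and 3 higher, with 1124 genes lower and 1269 higher. MRPL39 (log2 difference -1.01, SE 0.37, adjusted p = 0.0372), MRPL36 (-0.70, SE 0.13, adjusted p = 0.000524) and MRPL33 (-0.69, SE 0.21, adjusted p = 0.0148) differed most. MRPL36, with 862 and 802 counts at 32°C and 507 and 517 at 24°C, was the only member whose call was kept under all 22 alternatives. The number called was 11 and 7 without YPD 24°C replicate 1 and 2, and 8 and 6 without YPD 32°C replicate 1 and 2.

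**Figure D4:**
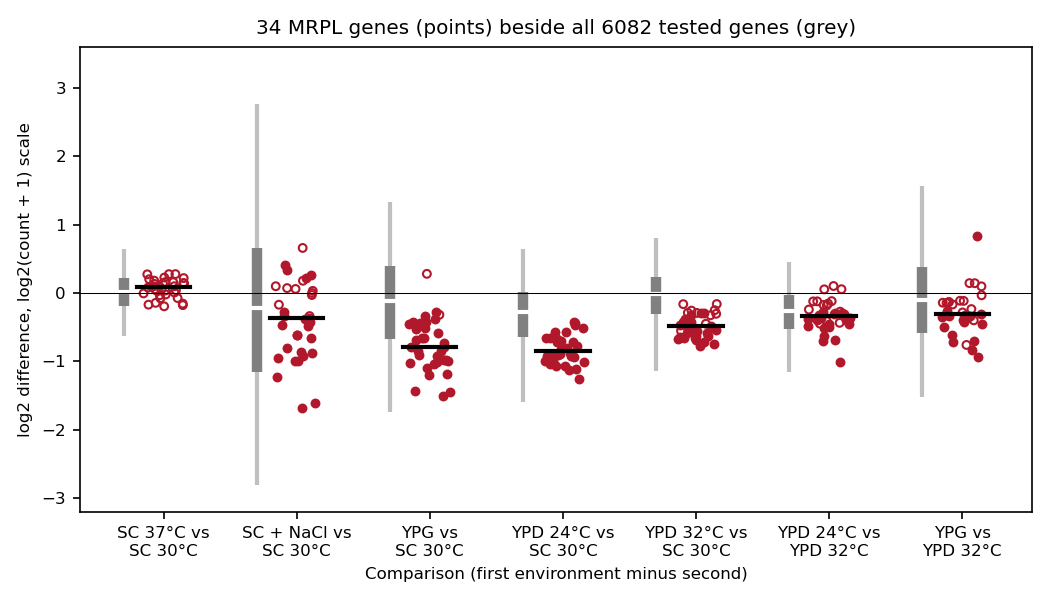
log2 differences of the 34 members (points, filled where called; black bar, their median) in the 7 comparisons, with the range of all 6082 tested genes in grey (thick, 25th to 75th percentile; thin, 5th to 95th; white mark, median). Against SC at 30°C the member median lies well below that of all genes in YPG (-0.79 and -0.11), in the cooler YPD (-0.85 and -0.29) and in the warmer YPD (-0.49 and -0.01).

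The comparisons with SC at 30°C share its 2 libraries, so their results are not independent of each other.

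Other genes of mitochondrial translation were also mostly lower in YPG. In YPG against SC at 30°C the remaining large-subunit genes had 8 of 11 lower (median -0.71), the small subunit 30 of 33 (-0.67), the aminoacyl-tRNA synthetases 13 of 14 (-0.74) and translation and assembly factors 10 of 14 (-0.49). With NaCl the small subunit had 17 lower and 6 higher (median -0.22) and the synthetases 8 lower and 2 higher (-0.34). The remaining large-subunit genes had 4 lower and 4 higher (-0.08) and the factors 6 lower and 6 higher (-0.02), against 20 lower and 4 higher among the members (-0.37).

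The nuclear genes of the respiratory chain and ATP synthase, most of whose products are joined with those made by the mitochondrial ribosome, had other values. With NaCl 29 of 32 were higher and 0 lower (median 1.30), where the members had 20 lower and 4 higher, or 3 higher without MRPL51, whose direction in salt is uncertain. In YPG against SC at 30°C 27 were higher and 0 lower (median 1.02), where the members had 0 higher and 32 lower. Against YPD at 32°C 31 of 32 were higher in YPG (median 1.84), and of the members 1. In YPD at 24°C and 32°C against SC both lists were mostly lower, the respiratory genes with medians of -0.87 and -0.85 and 32 and 28 lower. The difference between the lists was not tested.

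The genes of the large cytosolic subunit, of which 73 of 76 were tested, had different values again. With NaCl 72 were lower (median -2.72), a median fall far greater in size than that of the members. In YPD, 65 were higher than in SC at 24°C and 60 at 32°C (medians 0.65 and 0.61), whereas the members were lower in both. PUF3 itself, whose protein binds the element shown above, was at 672 ± 50.8 counts in SC at 30°C, 1196 ± 30.5 at 37°C and 1187 ± 10.4 with NaCl. It was at 753 ± 22.7 in YPG, and in YPD at 436 ± 45.4 (24°C) and 778 ± 95.4 (32°C). The order of its levels was not that of the members, and its part in the results was not tested.

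**Figure D5:**
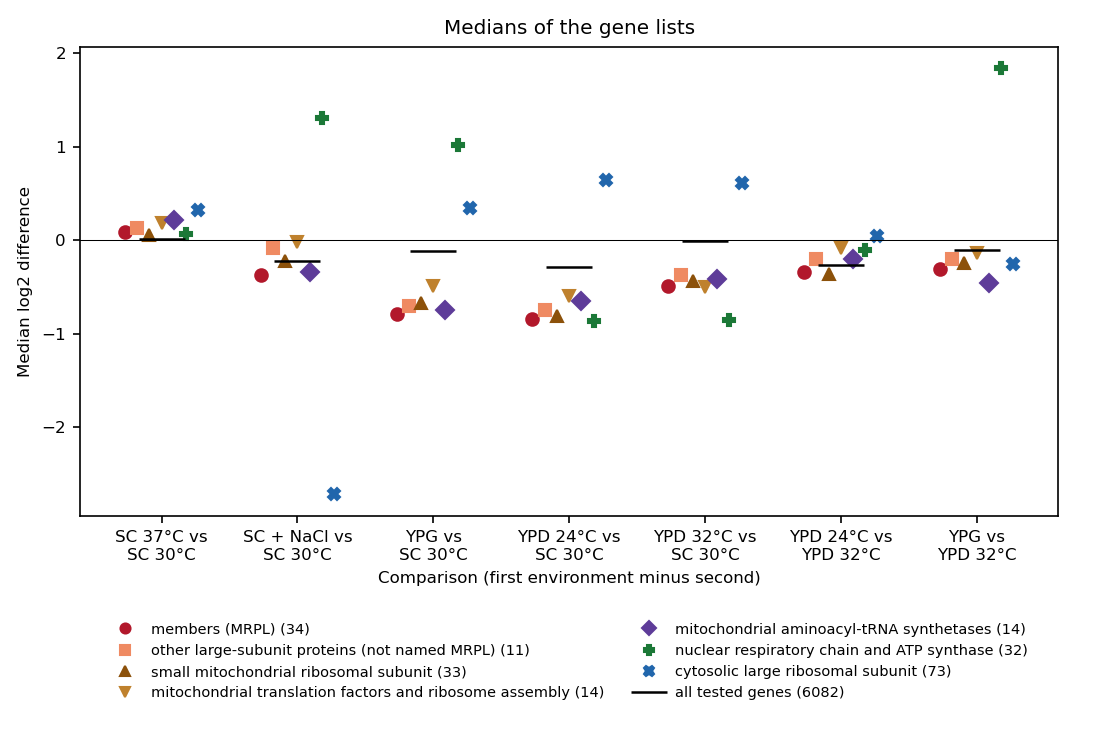
Median log2 difference of each gene list in the 7 comparisons, with the number of tested genes in brackets and the median of all 6082 genes as a black bar. In YPG against SC at 30°C the members and the other lists of mitochondrial translation lie between -0.79 and -0.49, while the respiratory genes are at 1.30 with NaCl and 1.02 in YPG, and the cytosolic large subunit at -2.72 with NaCl.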

How the data were processed

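Messenger RNA was measured by RNA-seq in 12 libraries, 2 for each of 6 environments, grouped by the sample titles. The authors aligned the reads with Hisat2 (R64 genome from Ensembl) and obtained values per gene from cuffquant followed by cuffnorm. The deposited counts are normalized estimates, a signal with fractional values. The deposited FPKM values come from the same programs, and replicates were not pooled. Between 74.2% and 82% of values from 0.5 to 20 were whole multiples of 1 step per library, within 0.01 of the step, so no test for counts was run. Where the written plan had foreseen counts, limma on log2 values was its stated choice for normalized values.

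Genes with a mean of at least 10 were tested with limma 3.58.1 (R 4.3.3) on log2(count + 1), with all libraries in 1 fit, a trend in the variance and Benjamini-Hochberg adjustment over 6082 genes in each of 7 comparisons (threshold 0.05). Fold changes of low genes are understated on this scale. The script was tested on simulated data. Alternatives were other scalings, pseudocounts, filters, the FPKM table, no variance trend, a replicate block, each library left out, and only the environments compared. Values of single libraries are from the count table, and levels between genes from FPKM. P-values measure the spread between replicate cultures.

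All 34 members were accounted for. Full statistics were given for the 3 largest rises and falls among called members of each comparison. Members with the widest and narrowest ranges, the highest and lowest FPKM and the profiles least like the others were named with those values. MRPL10, MRPL35, the members named for heat and those named by place in the ribosome were added after values were seen. The members and lists were chosen with earlier results of these data known. Of the list of the small subunit, 1 name matched no identifier. Motifs were searched in the R64 sequence with Python 3.11.15, and the longer Puf3 form was added after the first search. The authors' own differential expression test was not used.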

Additional observations from a re-analysis of the deposited data

How the results depend on the processing

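Median-of-ratios scaling moved the median of all genes from -0.22 to -0.03 with NaCl, from -0.11 to 0.01 in YPG and from -0.29 to 0.00016 in YPD at 24°C, each against SC at 30°C, and from -0.26 to 0.0031 between YPD at 24°C and 32°C. The member medians were then -0.18, -0.66, -0.56 and -0.079, and -0.20 in YPG against YPD at 32°C. Between the YPD temperatures 5 members were called, with 1242 of all tested genes lower and 1280 higher. Relative to the median of all genes the first 4 member medians were -0.15, -0.68, -0.56 and -0.08, as in the main fit. That agreement was fixed in advance, since this scaling shifts all genes of a library nearly alike, and it says nothing on robustness. Under quantile normalization the member medians were -0.20 (NaCl), -0.52 (YPG) and -0.39 (YPD at 24°C) against SC at 30°C, -0.019 between the YPD temperatures and -0.12 in YPG against YPD at 32°C. In YPD at 24°C against SC 22 members were called, with 1439 of all tested genes lower and 1952 higher. Between the YPD temperatures 4 members were called, with 1124 genes lower and 1269 higher. In SC at 37°C 2 members were called, with 1005 genes lower and 1114 higher. Under the same normalization MRPL25 reversed to 0.16 in YPD at 24°C against SC, and MRPL7, MRPL23 and MRPL24 to 0.032, 0.027 and 0.0012 between the YPD temperatures. The share of higher genes among all calls went from 18.6% to 48.8% (median-of-ratios) and 57.6% (quantile) in YPD at 24°C against SC, from 13.6% to 50.8% and 53% between the YPD temperatures, and from 43.7% to 55% (quantile) in YPD at 32°C against SC. The causes were not tested.

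Without a filter on low values, and without a trend in the variance, 13 members were called between the YPD temperatures; 1 was called in SC at 37°C on FPKM and without the trend. With 1 library left out, the calls in SC at 37°C ranged from 842 to 1986 genes, those between the YPD temperatures from 1825 to 3543 genes and 6 to 22 members, members called in YPD at 32°C against SC from 14 to 26 and in YPG against YPD at 32°C from 8 to 19, and the YPG median from -0.95 to -0.62. In these fits an environment with 1 library is assumed to vary like the others. Of 5229 recomputed member differences, 4857 kept direction and call, 305 lost the call, 63 gained it and 4 reversed.

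The replicate numbers were not taken to pair the libraries. Deviations of same-numbered libraries correlated at -0.0941 to 0.213 over 15 pairs of environments, 1 of them over 0.1. That pair was SC at 30°C with SC at 37°C, the environments compared for heat. With the number as a replicate block 22 members were called lower between the YPD temperatures, with 2635 of all tested genes lower and 413 higher. In YPG against YPD at 32°C 18 members were lower and 1 higher, with 2245 genes lower and 1656 higher. In YPG against SC 32 members were lower and MRPL4 higher, with 2382 genes lower and 1721 higher. The member counts of the other comparisons were unchanged. With a mean of at least 50 counts 33 members remained, since MRPL39 dropped out. A count near 1 stands for about 1 read pair, which limits MRPL39 most.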

Other observations

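Neighbours of the members also varied. MRX14 (YDR115W), which lies tail to tail with MRPL1, is itself one of the large-subunit genes that do not bear the name MRPL. MRX14 had 417 ± 7.72 counts in SC at 30°C, 535 ± 37.4 with NaCl and 168 ± 30.5 in YPG, while MRPL1 had 1375 ± 6.92, 904 ± 136 and 692 ± 84.7. COA3 (YJL062W-A), a cytochrome oxidase assembly factor that lies head to head with MRPL8, had 443 ± 69.6 counts in SC at 30°C, 580 ± 132 with NaCl and 135 ± 63.7 in YPG, while MRPL8 had 1618 ± 40.8, 1281 ± 131 and 825 ± 123. HAP4, the activator subunit of the CCAAT-binding complex, had 2576 ± 371 counts in SC at 30°C, 25426 ± 1990 with NaCl and 13521 ± 272 in YPG. These genes were chosen after their values were seen.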
